A study of Mus musculus with 19 samples.

Results

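Interferon-induced genes were measured in mouse kidney after 3 days without food, in young and in aged mice. The 38 genes were a list of well-known interferon targets, chosen with earlier results of these data known. Counts over the list therefore describe these data and are not an independent test. Each gene was read at its brightest probe set that carried a single gene name, brightness being the mean over all 19 arrays. Of these 38 genes, 31 could be read, out of 17097 genes measured in all. The list was split into gamma-type genes, which respond mainly to interferon gamma (12 of 16 read), and type I genes, which respond mainly to interferons alpha and beta (19 of 22 read). No probe set with a single gene name was listed for Gbp6, Tap1, Tap2, B2m, Oas1a, Bst2 and Isg15, and these 7 genes were not analysed here.

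All mice were males without surgery or renal ischemia, and each array held RNA from a piece of both kidneys of a single mouse. The young-lean mice were C57BL/6J, 10 to 14 weeks old and 22 to 25 g (5 ad libitum fed, 4 fasted with water only). The aged-overweight mice, 5 ad libitum fed and 5 fasted with water only, came from a cross (FVB-C57BL/6J F1-hybrid), were 73 weeks old on average and weighed about 47 g. Age, strain and body weight therefore changed together and cannot be told apart, and the aged arrays lay lower as a whole (array medians 3.44 to 3.49 against 4.15 to 4.21 on the log2 scale), so that levels were compared only within an age. Kidney markers were high on every array, with a mean log2 level of 9.96 to 10.37 over 9 genes. Liver and brown fat markers were uneven: the mean level of 13 liver markers reached 9.23 in 1 fasted aged mouse (mouse 33) and 7.78 in 1 fasted young mouse (mouse 339), against at most 6.79 in any ad libitum fed mouse. The mean of 7 brown fat markers was 4.38 to 4.80 in fed young mice and 6.37, 5.50, 5.98 and 4.01 in fasted young mice, and 4.24 to 6.23 in fed and 3.72 to 5.97 in fasted aged mice.

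Interferons are secreted proteins through which cells answer infection and immune activation. Interferons alpha and beta act on the receptor pair Ifnar1 and Ifnar2 and switch on genes through a complex that holds Stat2 and Irf9 and binds a promoter element called ISRE; the targets are mainly antiviral proteins. Interferon gamma, made by T and NK cells, acts on Ifngr1 and Ifngr2 and works through an element called GAS. Its targets include chemokines that call in T cells, GTPases that attack microbes inside cells, and the immunoproteasome and loading machinery that present peptides on MHC class I.

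The start regions of 6 members are shown because these genes carried the largest called fasting effects of their class among those whose promoter held a match to either element. Each is 120 bases from RefSeq (GRCm38.p6), written 5′ to 3′ on the gene's own strand, and the capitals mark an ISRE core (GAAANNGAAA) or a GAS (TTCNNNGAA) on either strand.
Gbp2, chr3:142620543-142620662, plus strand, ending at the base before the start site: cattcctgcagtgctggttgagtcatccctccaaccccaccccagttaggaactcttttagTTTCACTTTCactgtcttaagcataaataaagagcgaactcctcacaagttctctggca
Gbp3, chr3:142559924-142560043, plus strand, ending at the base before the start of this transcript (the gene record begins at 142560016, inside the stretch): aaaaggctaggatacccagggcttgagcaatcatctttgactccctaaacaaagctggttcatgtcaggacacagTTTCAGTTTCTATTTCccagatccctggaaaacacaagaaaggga
Igtp, chr11:58199436-58199555, plus strand, ending at the base before the start site: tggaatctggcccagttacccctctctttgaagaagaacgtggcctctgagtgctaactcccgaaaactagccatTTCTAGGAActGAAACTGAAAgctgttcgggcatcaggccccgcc
Psmb8, chr17:34198075-34198194, plus strand, ending at the base before the start site: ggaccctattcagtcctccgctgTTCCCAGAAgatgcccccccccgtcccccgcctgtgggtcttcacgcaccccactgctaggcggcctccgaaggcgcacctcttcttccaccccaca
Cxcl10, chr5:92349020-92349139, minus strand, from base −250 to base −131 relative to the start site: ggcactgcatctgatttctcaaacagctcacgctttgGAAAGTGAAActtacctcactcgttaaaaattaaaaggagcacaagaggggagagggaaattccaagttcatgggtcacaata
Ifit1, chr19:34640769-34640888, plus strand, ending at the base before the start site: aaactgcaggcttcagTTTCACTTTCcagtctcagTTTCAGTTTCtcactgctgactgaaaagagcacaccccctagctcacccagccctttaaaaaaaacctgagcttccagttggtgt

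Gbp2 held a single ISRE core, Gbp3 held 2 that overlap, and Ifit1 held 2 side by side. Igtp held a GAS followed by an ISRE core, and Psmb8 a GAS alone. Among the 23 read members with a promoter in the table (250 bases before to 50 after the start), 11 held an ISRE core (47.8%), against 3.99% of 27025 genes. A GAS was found in 6 of the 23 (26.1%), against 9.55% of all genes. The split by class was small: an ISRE core lay in 5 of 11 gamma-type and 6 of 12 type I promoters, and a GAS in 3 of 11 and 3 of 12. These matches are runs of letters, and binding at them was not measured.

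In young kidneys, each of the 31 members that changed was lower after fasting, and the falls were more frequent and larger among the gamma-type than among the type I genes. Of the 31 members, 14 fell and 0 rose at an adjusted p of at most 0.05, while 12.5% of all genes fell and 10.7% rose. Among the gamma-type genes 9 of 12 fell, with a median log2 change of −0.68 over the 12, and 8 of them fell by at least 1.5-fold, a size of fall that 3.53% of all genes reached. Among the type I genes 5 of 19 fell, with a median of −0.22, and 0 reached 1.5-fold in either direction (2.95% of all genes rose by that much). The median of all 17097 genes was −0.01. In 12 members every fasted array lay below every ad libitum array (8 gamma-type, 4 type I), which held for 11.4% of all genes, and in no member did the fasted arrays all lie above (9.9% of all genes). The 2 classes were not tested against each other, since the genes of a class share the same 9 mice. They also differed in brightness. In young kidneys 5 type I and 0 gamma-type members lay below the median level of the arrays, where a fall is hard to measure. The part of brightness in the contrast between the classes was not tested.

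**Figure D1:**
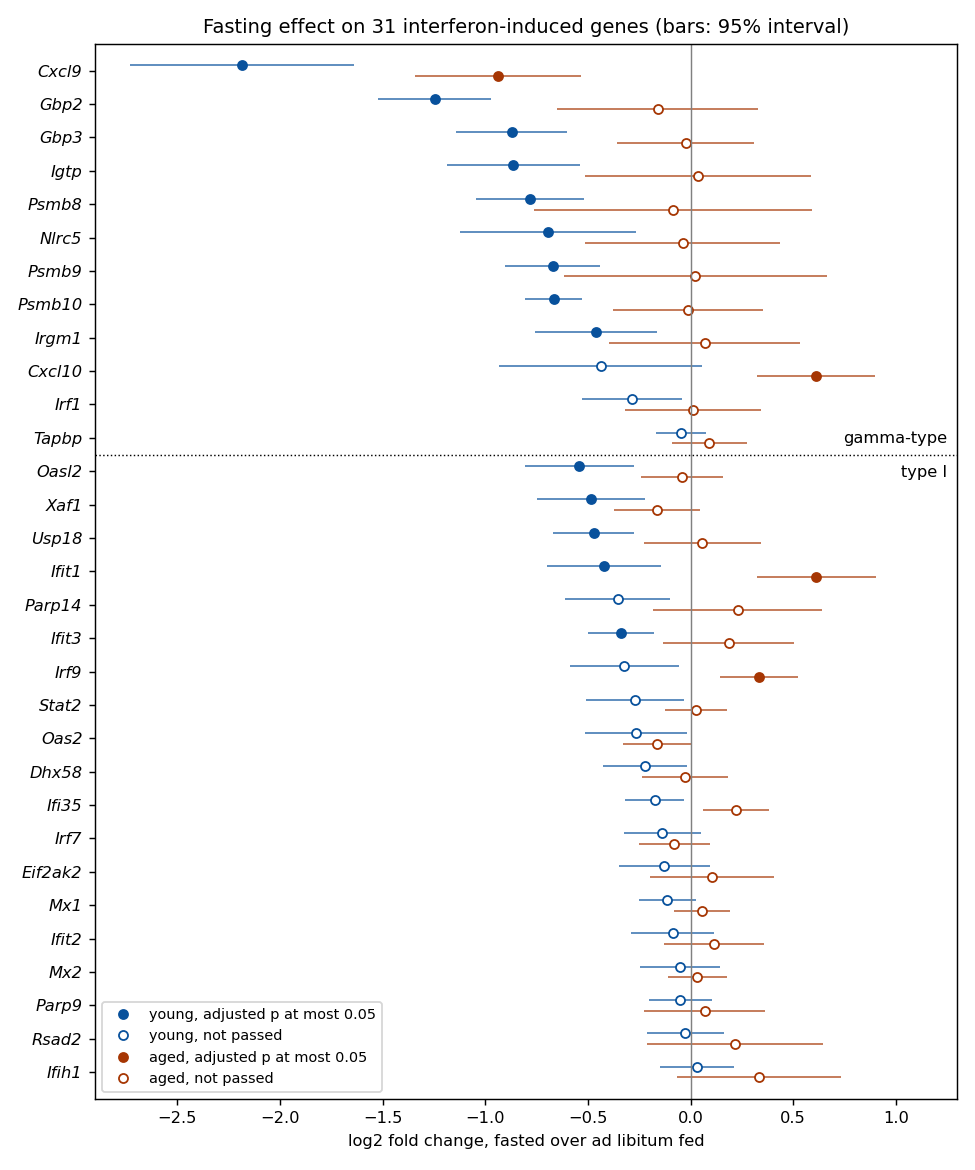
Log2 fold change, fasted over ad libitum fed, of the 31 members (rows) in young (blue) and aged (brown) kidneys, with 95% intervals; filled points had an adjusted p of at most 0.05. Gamma-type genes are above the dotted line. In young mice 14 points are filled, all left of 0, and in aged mice 4 are filled, 1 left and 3 right of 0.

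The chemokine Cxcl9, an interferon gamma target that draws activated T cells, had the largest change of the list. Its log2 level was 6.69, 6.59, 6.01, 7.30 and 7.31 in the ad libitum fed young mice and 5.06, 4.43, 4.54 and 4.35 in the fasted young mice. All 4 fasted mice lay well below all 5 fed mice, a 4.55-fold difference (log2 change −2.18, 95% interval −2.73 to −1.64, limma adjusted p = 0.000117). Cxcl10, which acts on the same receptor and is induced by both kinds of interferon, had 4.79, 4.67, 4.39, 4.55 and 5.78 in the fed and 4.50, 4.46, 4.37 and 4.27 in the fasted young mice. These groups overlapped, 1 fed mouse (mouse 350) stood above the rest, and the log2 change of −0.44 did not pass (adjusted p = 0.225).

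The GTPases act on vacuoles that hold microbes, and all 4 that were read fell in young kidneys. Gbp2 had log2 levels of 7.16, 7.47, 7.11, 7.73 and 7.66 in fed and 6.13, 6.11, 6.23 and 6.26 in fasted young mice. The fasted values lay close together and were all lower, by 2.37-fold (log2 change −1.25, interval −1.52 to −0.97, adjusted p = 4.65e-05). Gbp3, from the same guanylate-binding protein family, had 7.24, 7.45, 7.21, 7.69 and 7.69 in fed and 6.55, 6.54, 6.86 and 6.39 in fasted mice, again without overlap (log2 change −0.87, SE 0.12, adjusted p = 0.000515). Igtp, an immunity-related GTPase, had 7.35, 7.49, 7.29, 7.82 and 8.08 in fed and 6.57, 6.81, 6.77 and 6.82 in fasted mice (log2 change −0.86, SE 0.15, adjusted p = 0.00173). Irgm1, which regulates the other immunity-related GTPases, changed least of the 4 (log2 change −0.46, adjusted p = 0.0323), with all fasted mice below all fed mice, and its call was lost without fed mouse 348 or 349 or without any 1 of the fasted mice (adjusted p from 0.0511 to 0.0844). Gbp2 was read at a probe set marked as one that can bind transcripts of related genes; its other probe set fell too (log2 change −1.49, adjusted p = 4e-05).

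The 3 immunoproteasome subunits, which replace the standard catalytic subunits and change the peptides that are cut, fell by nearly equal amounts. Psmb8 had log2 levels of 7.15, 6.99, 6.98, 7.50 and 7.50 in fed and 6.50, 6.29, 6.41 and 6.55 in fasted young mice. Psmb9 had 6.54, 6.63, 6.38, 6.85 and 6.89 in fed and 6.15, 6.01, 5.89 and 5.90 in fasted mice. Psmb10 had 6.96, 7.03, 7.04, 7.18 and 7.12 in fed and 6.45, 6.32, 6.46 and 6.37 in fasted mice. In all 3 genes no fasted mouse reached the lowest fed mouse. The log2 changes were −0.78 for Psmb8 (SE 0.12, adjusted p = 0.00088), −0.67 for Psmb9 (SE 0.11, adjusted p = 0.00102) and −0.67 for Psmb10 (SE 0.06, adjusted p = 3.24e-05). The dimmer probe sets of Psmb9 did not pass, at −0.15 and −0.13 (adjusted p = 0.475 and 0.437), and neither did the dimmer one of Psmb8 (−0.15, adjusted p = 0.304). Nlrc5, the transactivator of MHC class I genes, had 5.27, 5.25, 5.08, 5.92 and 5.64 in fed and 4.43, 4.39, 5.08 and 5.05 in fasted young mice. Of the fasted values, 2 lay at the lowest fed value and the others clearly below (log2 change −0.70, SE 0.20, adjusted p = 0.0269), and the call was lost without fed mouse 349 or 350 or fasted mouse 339 or 340 (adjusted p from 0.0503 to 0.0822). Tapbp, which helps load peptides on MHC class I, and Irf1, an early transcription factor of the interferon gamma response, did not pass (−0.04 and −0.29, adjusted p = 0.669 and 0.104).

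**Figure D2:**
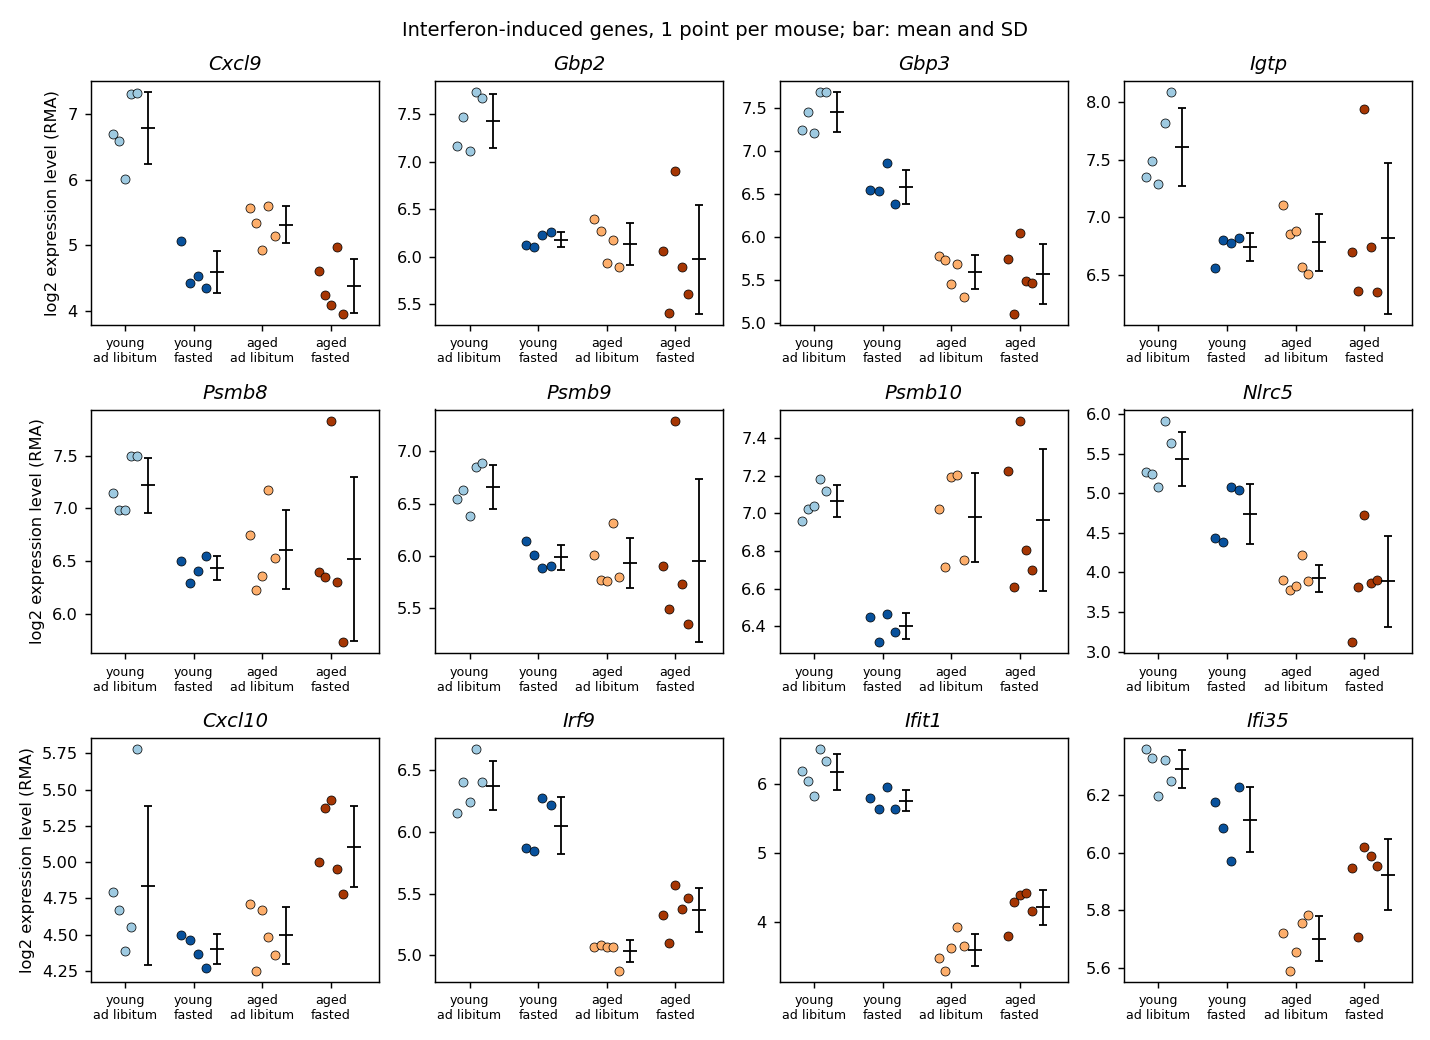
Log2 expression level of 12 members in each mouse (points), by age and feeding, with the group mean and SD (bars); levels are not comparable between ages. In young kidneys the fasted points of Cxcl9, Gbp2, Gbp3, Igtp and Psmb8 to Psmb10 lie below all fed points, while in aged kidneys only Cxcl10 and Irf9 have separated groups.

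Among the type I genes of young kidneys, the falls were smaller and spread over different functions. Oasl2, a relative of the oligoadenylate synthetases that sense double-stranded RNA, changed by −0.54 (adjusted p = 0.00832), Xaf1, which promotes apoptosis, by −0.49 (adjusted p = 0.0143), and Usp18, which removes ISG15 from proteins and dampens Ifnar signalling, by −0.47 (adjusted p = 0.00336). Ifit3, of a family that binds foreign RNA, changed by −0.34 (adjusted p = 0.00747), and in these 4 genes all fasted mice lay below all fed mice. Ifit1, which recognises RNA without the host's cap, had log2 levels of 6.19, 6.04, 5.83, 6.51 and 6.33 in fed and 5.80, 5.64, 5.96 and 5.64 in fasted young mice. Its groups overlapped by 1 mouse, and the log2 change was −0.42 (SE 0.13, adjusted p = 0.0368). This call was lost without any 1 of fed mice 346, 349 and 350 or fasted mice 339, 340 and 344 (adjusted p from 0.0618 to 0.0997). The other 14 type I genes did not pass and ranged from −0.36 (Parp14) to 0.03 (Ifih1, an RNA sensor). The brightest member of all, Rsad2, which encodes the antiviral enzyme viperin, differed by −0.03 (interval −0.21 to 0.16). Its dimmest probe set disagreed and fell (log2 change −0.39, adjusted p = 0.016). Mx1, Mx2, Oas2, Eif2ak2 and Dhx58 lay below the median level of the young arrays, where a fall is hard to measure.

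In aged kidneys the same fasting period gave few calls and no direction common to both classes. Of the 31 members, 1 fell and 3 rose, against 4.84% and 4.32% of all genes, and 27 did not pass. At 1.5-fold and over, 1 fell and 2 rose, against 1.28% and 1.39% of all genes. The median log2 change was 0.00 over the gamma-type and 0.07 over the type I genes (−0.01 over all genes). By sign alone, 6 gamma-type changes were above 0 and 6 below. Among the type I genes 14 were above 0 and 5 below, and over all genes 8254 were above and 8843 below. The type I leaning was small in size and was not tested, since these genes share the same mice. In 2 members the fasted arrays all lay above the fed arrays (4.66% of all genes), and in none all below (5.52% of all genes). Without moderation of the variances all 4 calls missed the threshold, with adjusted p from 0.0608 (Cxcl9) to 0.0814 (Irf9).

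Cxcl9 was the member that fell at both ages. In aged kidneys its log2 level was 5.56, 5.34, 4.92, 5.60 and 5.15 in fed and 4.61, 4.25, 4.10, 4.98 and 3.96 in fasted mice, so that 1 fasted mouse lay just above the lowest fed mouse. The difference was 1.91-fold (log2 change −0.94, interval −1.34 to −0.53, adjusted p = 0.00963). Cxcl10 went the other way, with 4.71, 4.25, 4.67, 4.48 and 4.36 in fed and 5.00, 5.37, 5.43, 4.95 and 4.78 in fasted aged mice. All fasted values were higher, by 1.53-fold (log2 change 0.61, interval 0.32 to 0.90, adjusted p = 0.0159).

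Ifit1 rose in aged kidneys, from 3.49, 3.30, 3.63, 3.93 and 3.66 in fed to 3.81, 4.29, 4.39, 4.42 and 4.16 in fasted mice. A single fasted mouse overlapped the fed mice (1.53-fold, log2 change 0.61, interval 0.32 to 0.90, adjusted p = 0.0157). Irf9, the DNA-binding part of the complex that answers interferons alpha and beta, had 5.07, 5.09, 5.07, 5.07 and 4.88 in fed and 5.33, 5.10, 5.57, 5.38 and 5.47 in fasted aged mice. The groups did not overlap, though the closest pair nearly touched, and the log2 change was 0.33 (adjusted p = 0.0407). This call was lost in 14 of 21 alternative settings, among them leaving out any of fed mice 34, 36, 37, 40 and 43 or fasted mice 33, 39, 41 and 42 (adjusted p up to 0.0993). The gamma-type genes that fell in young kidneys were near 0 here apart from Cxcl9: Gbp3 differed by −0.02, Igtp by 0.04, Psmb9 by 0.02 and Psmb10 by −0.01. Their intervals were wide, for example −0.62 to 0.67 for Psmb9 and −0.76 to 0.59 for Psmb8. Irf7, Oas2, Oasl2, Mx1, Eif2ak2, Usp18 and Dhx58, all type I genes, lay below the median level of the aged arrays.

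A single fasted aged mouse, mouse 39, stood apart in these genes. It was the highest of all 10 aged mice in 10 of the 12 gamma-type and 9 of the 19 type I members. Psmb8 reached 7.83 in it against at most 7.18 in any other aged mouse, Psmb9 7.30 against 6.32, Igtp 7.94 against 7.11, Irgm1 8.53 against 7.85 and Gbp2 6.90 against 6.40. Cxcl9 was an exception, since mouse 39 had the second lowest value of that gene among aged mice, 4.10. Its mean level over 7 MHC class II genes was 8.14, against 6.85 to 7.42 in the other aged mice, and over 19 T and NK cell markers 3.38, against 3.04 to 3.24. Its mean over 19 macrophage and dendritic cell markers was 5.37, within the range of the others (5.02 to 5.67). The T and NK cell means of all aged mice lay below the medians of the aged arrays (3.44 to 3.49), where small differences are hard to read. The part of these cells in the result was not tested.

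Without mouse 39 the median log2 change of the gamma-type genes in aged kidneys was −0.20 in place of 0.00, and 10 of 12 were negative in place of 6. Gbp2 then differed by −0.39 (adjusted p = 0.177), Psmb8 by −0.41 (adjusted p = 0.305) and Psmb9 by −0.31 (adjusted p = 0.287), and no further member passed. Cxcl9 (−0.87, adjusted p = 0.0283), Cxcl10 (0.53, adjusted p = 0.0392) and Ifit1 (0.57, adjusted p = 0.0446) still passed, whereas Irf9 did not (0.28, adjusted p = 0.0993). Over the 5 fasted aged mice, the median SD of a gamma-type gene was 0.48, against 0.21 in the fed aged mice and 0.12 in the fasted young mice.

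**Figure D3:**
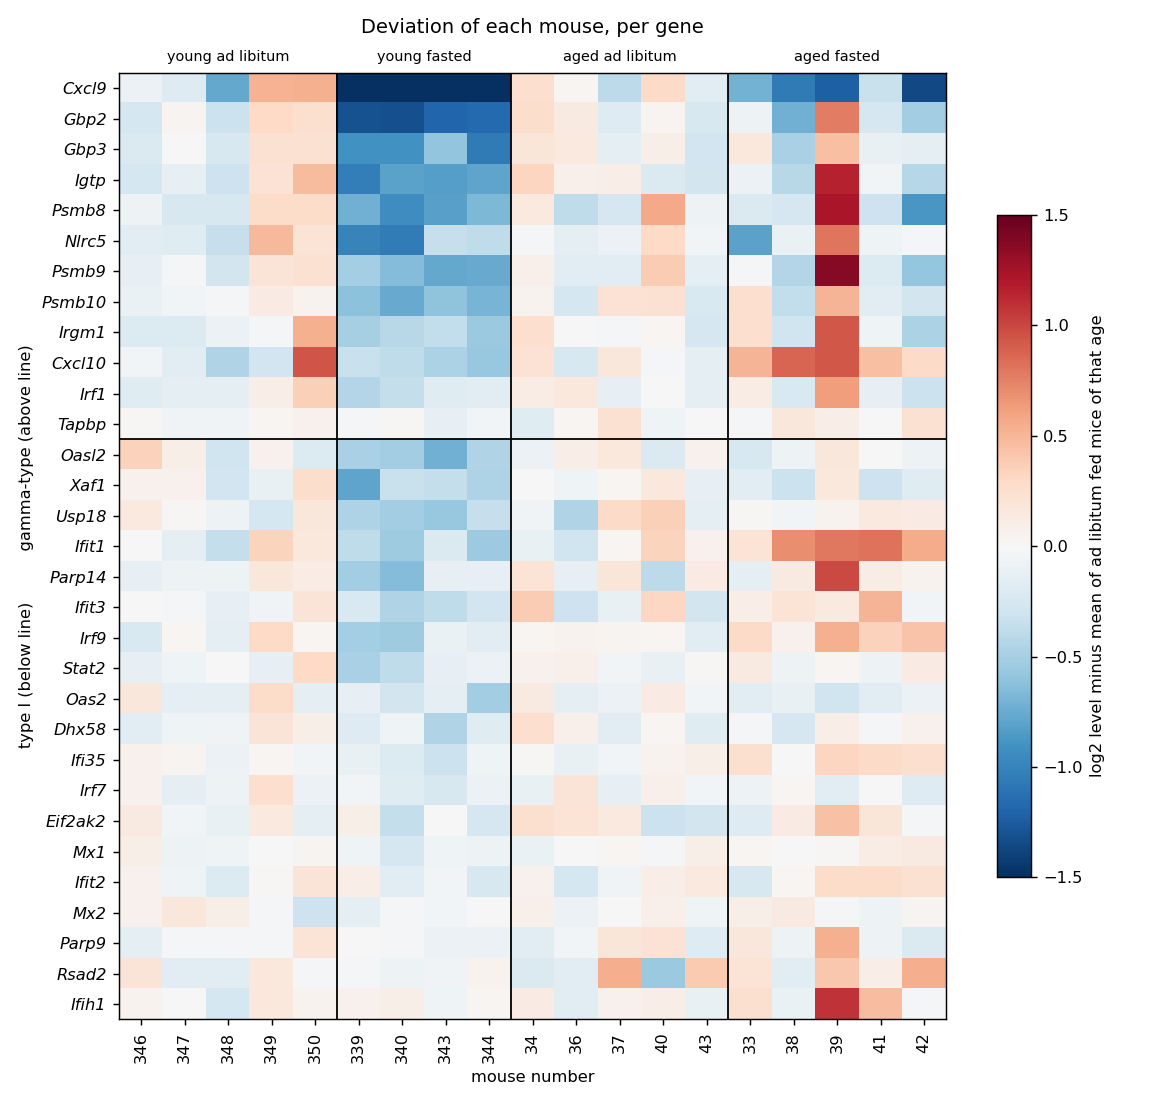
Log2 level of each member (rows) in each mouse (columns) minus the mean of the ad libitum fed mice of the same age; blue is lower and red higher, and the colours end at 1.5 in either direction. The 4 fasted young mice are blue over nearly all gamma-type genes, while among the 5 fasted aged mice mouse 39 stands out in red and is the highest aged mouse in 10 of the 12.

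The fasting effect was then compared between ages through the difference of the effects, aged minus young, fitted over all 19 arrays. All 31 differences were above 0, with a median of 0.70 over the gamma-type and 0.30 over the type I genes (0.00 over all genes). Without mouse 39 these medians were 0.48 and 0.20. Of the 31, 4 passed the test and all were positive, while 1.55% of all genes were positive and 0.895% negative. The members that passed were Ifit1 (1.03, interval 0.63 to 1.44, adjusted p = 0.00779), Irf9 (0.66, interval 0.34 to 0.98, adjusted p = 0.0299), Ifi35 (0.40, interval 0.19 to 0.60, adjusted p = 0.0413) and Gbp3 (0.85, interval 0.40 to 1.29, adjusted p = 0.0429). For Ifit1 the effect passed at both ages with opposite signs, and its difference passed in all 29 alternative settings. Gbp3 differed because it fell in young mice and not in aged mice, where its levels were 5.78, 5.74, 5.46, 5.69 and 5.31 in fed and 5.75, 5.11, 6.05, 5.49 and 5.46 in fasted mice, with full overlap.

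Irf9 in young kidneys had 6.15, 6.41, 6.25, 6.67 and 6.40 in fed and 5.87, 5.84, 6.28 and 6.22 in fasted mice, and its change there did not pass (−0.32, adjusted p = 0.0886). Ifi35, an interferon-induced leucine zipper protein, passed within neither age. Its levels were 6.36, 6.33, 6.20, 6.32 and 6.25 in fed and 6.18, 6.08, 5.97 and 6.23 in fasted young mice, and 5.72, 5.59, 5.66, 5.76 and 5.78 in fed and 5.95, 5.71, 6.02, 5.99 and 5.95 in fasted aged mice. In young mice the fasted values tended to be the lower ones and in aged mice the higher ones, by −0.18 and 0.22 on the log2 scale (adjusted p = 0.0931 and 0.11), and the aged change passed without fasted mouse 38 (adjusted p = 0.0402). Without mouse 39 the difference no longer passed for Irf9, Ifi35 or Gbp3 (adjusted p = 0.0506, 0.0681 and 0.0598), and these 3 calls were lost as well without any 1 of young mice 347, 350, 339 and 340 or aged mice 41 and 42 (adjusted p from 0.0504 to 0.0829).

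Several of the largest differences lay just past the threshold: Cxcl9 1.25 (adjusted p = 0.0568), Gbp2 1.09 (adjusted p = 0.0545) and Cxcl10 1.05 (adjusted p = 0.053). The dimmer probe set of Gbp2 passed (1.35, adjusted p = 0.00952). Without fed young mouse 350, the one with the high Cxcl10 value, the Cxcl10 difference was 0.81 and passed (adjusted p = 0.0279). The other 8 gamma-type differences did not pass either, and some had wide intervals: Psmb8 had 0.70 with an interval of −0.09 to 1.49, and 0.37 without mouse 39 (adjusted p = 0.574).

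In whole kidney tissue, fewer cells of a type and less RNA per cell cannot be told apart, and macrophage and MHC class II genes moved together with the gamma-type genes in young mice. For the marker counts below, the shares of all genes were 12.5% falling and 10.7% rising in young kidneys. In aged kidneys they were 4.84% and 4.32%. Of 19 macrophage and dendritic cell markers, 11 fell and 0 rose in young fasted kidneys (median −0.47), among them C1qb (−0.92), Aif1 (−0.90), Ptprc (−0.78) and Adgre1 (−0.77). Their mean log2 level was 5.79 to 6.16 in fed and 5.43 to 5.58 in fasted young mice, while that of the gamma-type genes was 6.78 to 7.40 and 6.23 to 6.34, without overlap in either. Of 7 MHC class II genes, themselves interferon gamma targets, 5 fell in young mice, including H2-DMa (−0.77) and H2-Ab1 (−0.65), and 0 passed in aged mice. T and NK cell markers fell in 2 of 19, no larger a share than the 12.5% of all genes: Thy1 (−0.36) and Cd3g (−0.28). The mean level of the 19 was 3.44 to 3.54 in fed and 3.35 to 3.42 in fasted young mice. These means lay below the medians of the young arrays (4.15 to 4.21), where a fall is hard to measure. In aged mice 1 macrophage marker fell (Csf1r, −0.51), and the mean level of that list was 5.14 to 5.67 in fed and 5.02 to 5.49 in fasted mice. Of the macrophage list the difference between ages passed only for Ptprc (0.94, adjusted p = 0.00853), a gene not specific to macrophages. The other 18 did not pass, among them Adgre1 (0.94, adjusted p = 0.236) and C1qb (0.77, adjusted p = 0.158). None of the 6 B and plasma cell markers passed at either age, and of 12 endothelial markers 2 fell in young mice. The 5 genes listed for plasmacytoid dendritic cells did not pass either. Their mean log2 level in young mice was 6.51 to 6.87, far above that of the T and NK cell markers. Whether they read those cells in kidney was not tested. Some genes listed as markers of other tissues also changed in young mice. Of 13 liver markers, 5 rose and 1 fell. Those that rose were Trf (1.53), Serpina1a (1.38), Apob (1.14), Serpina1b (0.76) and Ambp (0.71), and Ttr fell (−1.04). The other 7 did not pass, among them Alb (0.22, adjusted p = 0.853), Apoa1 (0.39, adjusted p = 0.73) and Cps1 (0.46, adjusted p = 0.714). Of 7 brown fat markers 3 rose, among them Cidea (2.84, adjusted p = 0.0245), and 1 fell. In aged mice 1 liver marker rose and 1 brown fat marker fell. Without fasted young mouse 339, the young mouse with the highest mean of both the liver and the brown fat list, 11 of the 31 members fell in place of 14. These were 7 gamma-type and 4 type I genes, and leaving out fasted mouse 340 or fed mouse 349 gave the same counts. Over all genes, 2140 falls in young kidneys became 1926 without mouse 339, 1869 without mouse 340 and 2074 without mouse 349. The part of these cells and tissues in the fall of the interferon-induced genes was not tested.

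**Figure D4:**
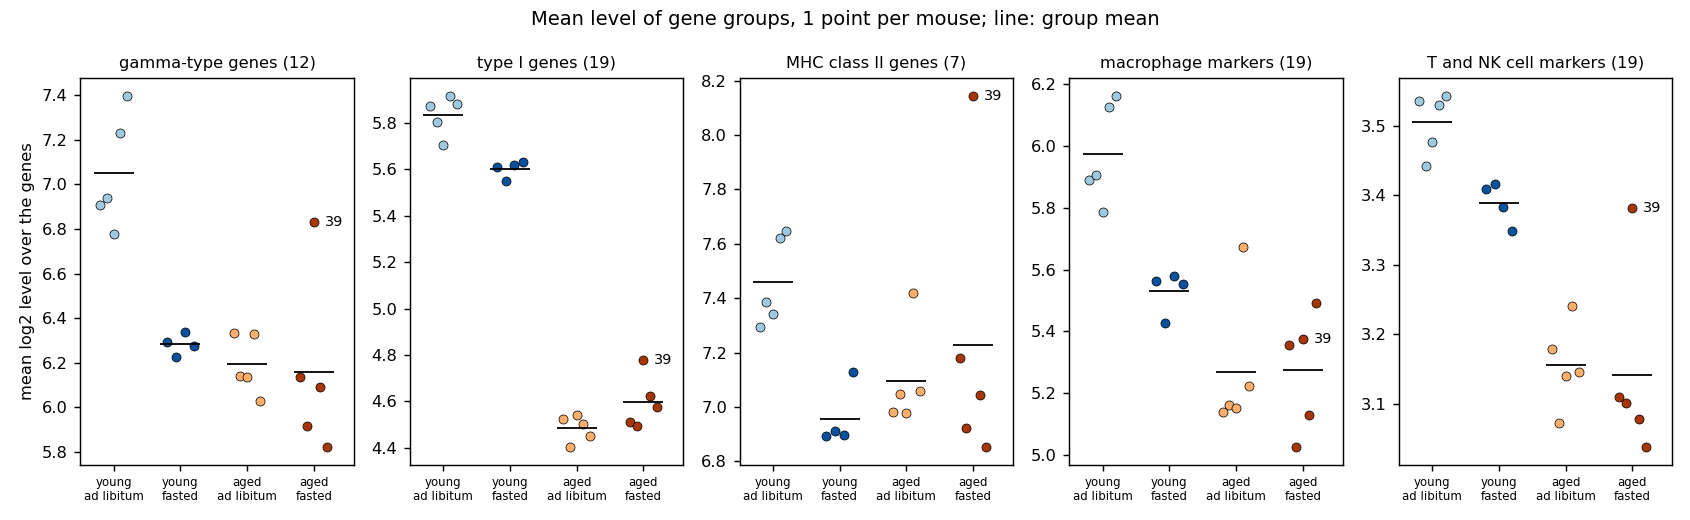
Mean log2 level over the genes of a group in each mouse (points), with the group mean (line), for the gamma-type and type I members and for MHC class II, macrophage and T and NK cell genes. In young mice the fed and fasted points are apart in all 5 panels; mouse 39 is the highest aged mouse in 4 of the 5 and not in the macrophage panel.

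Beside the counts that follow, 10.7% of all genes rose and 12.5% fell in young kidneys, and 4.32% rose and 4.84% fell in aged kidneys. The lists are short, and none was tested against these shares. Upstream of the members, 11 genes for the interferons themselves were read, and 0 passed at either age. Their mean log2 level was 3.02 to 3.19 in young and 2.74 to 2.83 in aged kidneys, below the array medians. Of 6 receptor genes, Ifngr1 (0.32, adjusted p = 0.0107) and Ifnlr1 (0.33, adjusted p = 0.0275) rose and Ifnar1 (−0.32, adjusted p = 0.0417) fell in young kidneys, and 0 passed in aged kidneys. Among 9 signal transducers, Stat3, which mainly carries signals of the interleukin 6 family, rose at both ages (0.34 in young, adjusted p = 0.008, and 0.51 in aged, adjusted p = 0.00202). The kinase Jak1 fell in aged kidneys (−0.35, adjusted p = 0.0145). Among 10 genes listed as inhibitors of the pathway, Cish, which is not specific to interferon signalling, rose in aged kidneys (1.39, adjusted p = 0.00732). Socs1 and Socs3 did not pass there (−0.03 and 0.13, adjusted p = 0.875 and 0.628) or in young kidneys. In young kidneys Ptpn6, a phosphatase of blood cells, fell (−0.57, adjusted p = 0.00155) and Pias1 rose (0.22, adjusted p = 0.0396). Of 16 genes that sense nucleic acids and induce interferon, 0 passed in young and 1 in aged kidneys (Ikbke, −0.31, adjusted p = 0.0469).

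Further interferon-induced genes outside the 38 were counted in the same way. Of 36 read, 13 fell and 2 rose in young kidneys (median −0.23; 12.5% and 10.7% of all genes). Those that rose were Parp10 (0.53, adjusted p = 0.0134) and Pml (0.31, adjusted p = 0.0405), and the lowest values were those of Tgtp1 (−1.39), Ifi47 (−1.21), Oas1g (−0.97), Irgm2 (−0.95), Rtp4 (−0.90) and Cmpk2 (−0.85). In aged kidneys 0 of the 36 fell and 3 rose (median 0.03; 4.84% and 4.32% of all genes): Gbp7 (0.76, adjusted p = 0.0213), Lgals3bp (0.55, adjusted p = 0.00347) and Psme1 (0.37, adjusted p = 0.0146). The difference between ages passed for Lgals3bp (0.76, adjusted p = 0.0205), Ifi203 (0.82, adjusted p = 0.0309) and Gbp7 (0.95, adjusted p = 0.0347). Members of the Gbp, Ifit, Oas and immunity-related GTPase families are close in sequence, so that a probe set can also bind relatives of the gene it is named for.

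The genes taken here to answer both kinds of interferon about equally were then set aside. These were Cxcl10 from the gamma-type and Irf9, Stat2, Ifi35, Parp9 and Parp14 from the type I genes. The genes kept can still answer the other kind as well, so neither class is exclusive. In young kidneys the contrast between the classes was as large: 9 of 11 gamma-type genes fell (median −0.70) and 5 of 14 type I genes (median −0.18). In aged kidneys the medians were then −0.01 and 0.06.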

How the data were processed

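Total RNA from kidneys of 19 male mice was run on the Affymetrix array HT MG-430 PM, 1 array per mouse. The deposited values are log2 levels that the authors obtained by Robust Multichip Average (RMA) in the arrayanalysis.org pipeline, whose version is not given in the sources used here; young and aged arrays appear to have been normalised separately. Of 45141 probe sets, 28898 carried 1 gene symbol in GEO's platform annotation, 551 several and 15692 none. Arrays of a group correlated at 0.988 to 0.997.

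Fasted and ad libitum fed mice were compared within each age with limma 3.58.1 (R 4.3.3; lmFit and eBayes), and the difference between ages in a fit of all 19 arrays. P-values were adjusted after Benjamini and Hochberg over all probe sets. A gene passed if its adjusted p did not exceed 0.05, and counts at 1.5-fold or more are given in addition, both thresholds being those of the study. Shares of all genes were taken over 17097 genes, each at its brightest single-gene probe set. Intervals are 95% intervals of the fit. The scripts were tested on simulated data. Replicates were separate mice, and precision is limited by their number. Values of every mouse are given for members called in either age at 1.5-fold or whose difference passed. Members and lists were chosen with earlier results of these data known. Alternatives were other variance models, normalisations, filters, probe set rules and thresholds, and leaving out each mouse.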

Additional observations from a re-analysis of the deposited data

Results flagged for a closer look

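Within a group of 4 or 5 mice, 9 of 124 tested gene and group combinations held 1 mouse far from the others; chance gives about 5% of groups. In fasted aged mouse 39 these were Igtp (7.94, next 6.74), Psmb9 (7.30, next 5.91) and Parp14 (6.00, next 5.13). In ad libitum fed young mouse 350 they were Cxcl10 (5.78, next 4.79) and Irgm1 (8.93, next 8.38). Single values were high for Nlrc5 in fed aged mouse 40 (4.22, next 3.90) and low for Irf9 in fed aged mouse 43 (4.88, next 5.07), Mx1 in fasted young mouse 340 (2.75, next 2.93) and Ifi35 in fasted aged mouse 38 (5.71, next 5.95). The fasting effect differed between ages, aged minus young, by a test of the difference itself for Ifit1 (1.03), Gbp3 (0.85), Irf9 (0.66) and Ifi35 (0.40) on the log2 scale.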

How the results depend on the processing

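No call reversed its direction under any setting. The aged gamma-type median, 0.00, has no settled sign: it ran from −0.20 (without mouse 39, 10 of 12 genes negative) to 0.08 (without mouse 42, 9 of 12 positive), and 9 of 12 were negative without mouse 43. Of the 31 differences between ages, all above 0, that of Irf7 (0.06) turned to 0.00 or just below without young mouse 349. The number of members whose effect differed between ages was least stable. From 4 it became 2 without moderation of the variances, 1 at a threshold of 0.01 and 1 without the pair of arrays richest in liver markers (fasted mice 33 and 339). It was 7 with the lowest 40% of probe sets left out, 7 with the mean of a gene's probe sets and 7 with only the brightest probe sets tested. Positive differences over all genes moved too, from 265 to 154, 77 and 211 in the former settings. In the latter they were 311 of 11795 genes, 338 and 331. Leaving out 1 mouse gave 1 such member (without young mouse 347 or 340 or aged mouse 41) to 6 (without young mouse 348 or aged mouse 40), and 2 without mouse 350, 339, 37, 33 or 39. Positive differences over all genes then numbered 157 without mouse 340, 186 without mouse 348 and 309 without mouse 40. The median difference of the type I members, 0.30, ranged from 0.20 (without mouse 39) to 0.34 (without mouse 38). In aged kidneys 0 members fell and 0 rose without moderation, and 0 rose at 0.01. Over all genes, 738 rose and 828 fell there in the main fit, 482 and 640 without moderation, and 308 and 395 at 0.01. In young kidneys the 14 falls became 8 when 1.5-fold was also asked. The 5 type I falls became 3 without moderation, 3 at 0.01, 8 after quantile normalisation within age and 0 at 1.5-fold. Falls over all genes were 2140 in the main fit, 1618 without moderation, 1285 at 0.01, 2254 after quantile normalisation and 604 at 1.5-fold. In a single fit of all arrays, Psmb8 (adjusted p = 0.0562), Psmb9 (adjusted p = 0.0835), Ifit3 (adjusted p = 0.084) and Irgm1 (adjusted p = 0.141) did not pass in young kidneys. Cxcl9, Gbp2, Gbp3, Igtp and Psmb10 passed there in all 20 settings. The causes were not tested. No paired analysis was possible because the groups share no replicate numbers.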
